A study of Mus musculus with 8 samples.

Results

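Macroautophagy, the pathway that wraps part of the cytoplasm in a double membrane and delivers it to the lysosome, was followed through 40 genes of its core machinery in spleens of Nix-null and wild-type mice. The genes were chosen by symbol, from initiation of the autophagosome to its fusion with the lysosome together with the transcription factors Tfeb and Foxo3, and every probe set annotated to 1 of these symbols alone was taken. This gave 93 probe sets of 40 genes, out of 18193 genes that the array's annotation names singly. One further probe set, annotated jointly to Foxo3 and Gm38485, was left out.

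Spleen RNA came from mice 8 weeks old of both genotypes: 4 Nix null animals (Nix-/-) and 4 wild-type controls (WT). Per the labels, RNA extracts were not pooled and animals were not treated. Arrays carry the number in their titles, which gives Nix_KO 10, 2, 3 and 6 and WT 3, 4, 5 and 6. Values are listed below in that order. Strain, sex and the deleted part of the gene are not given in the sources used here. P-values measure the spread between these 8 animals. In whole spleen, fewer cells of a type and less RNA per cell cannot be told apart.

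Autophagosome formation starts when the ULK1 kinase complex is switched on, and it passes to a lipid kinase complex built on BECN1, PIK3C3 and PIK3R4 that marks the membrane with phosphatidylinositol 3-phosphate. WIPI proteins read this lipid, ATG9 and ATG2 supply membrane, and a ubiquitin-like conjugation system attaches LC3 and GABARAP proteins to it after ATG4 proteases have cut their ends. Nix, encoded by Bnip3l, is an outer mitochondrial membrane protein that binds LC3 and GABARAP proteins, and it is known for its part in removing mitochondria from reticulocytes, the last stage of red cell maturation. The mouse spleen makes red cells as well as housing lymphocytes.

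Several properties of the arrays move with genotype or stand apart, and they bear on every value that follows. The 3 probe sets of Bnip3l, all shared in annotation with the pseudogene Bnip3l-ps, differed by log2 0.43, -0.50 and 0.58 between genotypes (limma adjusted p = 0.158, 0.164 and 0.117) and therefore did not check the genotype labels. Acinar pancreas markers, which spleen should lack, averaged log2 12.47 in Nix_KO 3, 11.47 in WT 3 and 9.35 in WT 5, against 4.98 to 6.84 in the other 5 arrays. For the whole list of 15 annotated genes, the summed linear intensity ran from 1280 to 119000 in Nix-null and from 1280 to 68100 in wild-type arrays. Of its 13 tested genes, 0 passed the limma test. All 17 erythroid markers were higher in Nix-null spleen, all 9 B cell markers lower, all 12 neutrophil markers higher and all 10 stromal and endothelial markers lower, each by limma at the same threshold. The summed linear erythroid intensity was 162000 to 213000 in Nix-null and 34100 to 88000 in wild-type arrays, and for B cell markers these ranges were 14300 to 25300 and 45700 to 55900. All 11 proliferation markers were higher, while T cell markers were lower for 5 of 9 genes, macrophage markers for 3 of 11 and megakaryocyte markers for 2 of 8. Over all genes tested, 13.1% were higher and 21.3% lower, so the macrophage and megakaryocyte shares were near that of all genes. Markers listed for spleen averaged log2 8.49 to 9.17 in Nix-null and 9.41 to 9.57 in wild-type arrays. This list includes the lymphocyte genes Cd79a and Cd3e, which raise its mean. Of the others, Tlx1 read 6.09 to 7.41 and Nkx2-5 5.64 to 6.45 over all 8 arrays, which is weak, while Spic read 8.95 to 10.37. The part of these cell markers in the differences below was not tested. The Y-linked genes Eif2s3y, Kdm5d and Uty were high in Nix_KO 10, Nix_KO 6, WT 5 and WT 6, that is in 2 arrays of each genotype. Xist, the RNA of the inactive X chromosome, read 10.64, 12.63, 13.42 and 4.83 in Nix-null and 13.15, 13.13, 10.76 and 7.90 in wild-type arrays. Nix_KO 10 and WT 5, and at a lower Xist level WT 6, thus carried both Xist and Y-linked signal, which a spleen of either sex would not, and whether RNA of several animals was mixed in them was not tested.

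Of the 40 genes, 39 had a probe set past the filter on weak signal, a log2 intensity of at least 5 in at least 4 of 8 arrays. Each gene was represented by its brightest probe set. In Nix-null spleen 10 of the 39 genes were higher and 6 lower (limma, adjusted p below 0.05), and 23 did not pass. The share called, 41.0%, stood beside 34.4% of all 11027 genes tested. By direction it was 25.6% higher against 13.1% of all genes, and 15.4% lower against 21.3%. The median log2 difference was 0.03 over the 39 genes and -0.15 over all genes. By probe set, 26 of 77 passed (18 higher, 8 lower), or 33.8% against 30.0% of all 22347 tested. Arrays of the 2 genotypes did not overlap for 18 of the 39 genes (46.2%), against 39.6% of all genes. By direction, 10 of the 39 genes were higher in Nix-null spleen, against 15.7% of all genes, and 8 of the 39 lower, against 23.9%. Centring each array on its median raised the median log2 difference of all probe sets from -0.12 to 0.000134, a shift that applies to every value here. It moved the higher share of all called probe sets from 41.6% to 52.4%, and it gave 12 higher members, with Rb1cc1 and Wipi2 added, and 6 lower ones. The autophagy genes thus changed in both directions, and with directions pooled their share was close to that of the array as a whole. By direction, higher genes had a larger share and lower genes a smaller one than over all genes, which was not tested. The differences described next belong to single genes.

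**Figure D1:**
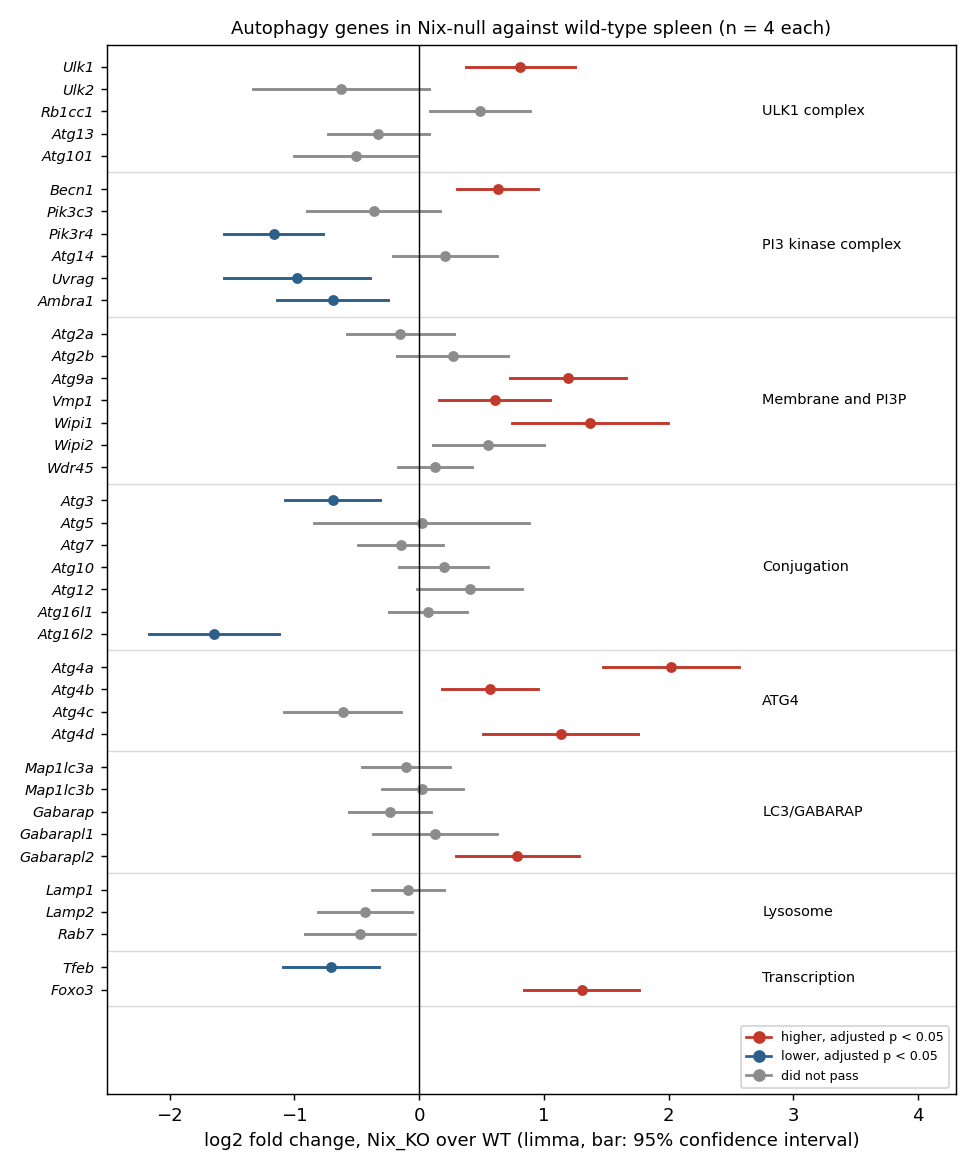
Log2 difference in intensity, Nix-null minus wild type, for the 39 tested genes ordered by step of the pathway, with 95% confidence intervals of the limma fit (4 arrays per genotype). Atg4a lies farthest to the right at 2.02 and Atg16l2 farthest to the left at -1.64, and the 3 lysosomal genes lie at or below 0.

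In the initiation complex, Ulk1 was the 1 gene of 5 that passed. Ulk1 encodes the kinase that starts autophagy and has a known part in clearing mitochondria and ribosomes from reticulocytes. Its log2 intensity was 8.99, 9.39, 9.50 and 9.51 in Nix-null and 8.84, 8.59, 8.58 and 8.13 in wild-type spleen. The lowest Nix-null array stood above the highest wild-type array, and the difference was 0.81 ± 0.19 (SE, n = 4 per genotype), 1.76-fold higher (limma adjusted p = 0.0134). Its second probe set, at a weaker level, differed by 0.45 and did not pass (adjusted p = 0.193).

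Ulk2, the close relative of Ulk1, read 8.33, 7.19, 8.31 and 8.48 in Nix-null and 8.98, 8.75, 8.08 and 9.001 in wild-type spleen. The groups overlapped and the difference of -0.63 (95% interval -1.33 to 0.08) did not pass, although 1 of its 3 other probe sets did, at -0.52 (limma adjusted p = 0.0355). Rb1cc1, the scaffold FIP200, read 6.99 to 7.63 in Nix-null and 6.51 to 6.93 in wild-type arrays. The groups did not overlap, yet the difference of 0.49 did not pass the limma test (adjusted p = 0.0655). The mean of the Rb1cc1 probe sets, fitted by gene, did pass, at 0.85 (limma adjusted p = 0.0214). Atg13 and Atg101, the adaptor subunits, differed by -0.33 and -0.50 and did not pass.

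The lipid kinase complex held genes of both directions: 1 of 6 was higher and 3 were lower. Becn1, the scaffold subunit, had a log2 intensity of 12.94, 12.93, 13.24 and 12.88 in Nix-null against 12.44, 12.33, 12.23 and 12.49 in wild-type spleen. All Nix-null arrays were above all wild-type arrays, and Becn1 was 1.55-fold higher (log2 difference 0.63 ± 0.15 SE, limma adjusted p = 0.0119). Its other 3 tested probe sets differed by 0.43 to 0.57 and did not pass.

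Pik3r4, the regulatory subunit VPS15 that holds the kinase, read 9.55, 9.07, 9.29 and 9.48 in Nix-null and 10.53, 10.81, 10.21 and 10.49 in wild-type spleen. The 4 Nix-null arrays lay well below the wild-type ones, a 2.24-fold lower level (log2 difference -1.17 ± 0.18 SE, limma adjusted p = 0.00325). The catalytic subunit Pik3c3 differed by -0.36 (95% interval -0.89 to 0.17) and did not pass. Thus Becn1 and Pik3r4, subunits of 1 complex, passed in opposite directions.

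Uvrag and Ambra1, which bind BECN1, were both lower. Uvrag read 8.74, 7.71, 8.19 and 8.89 in Nix-null and 9.31, 9.59, 9.05 and 9.48 in wild-type spleen. The groups did not overlap, with a 1.97-fold lower level in Nix-null spleen (log2 difference -0.98 ± 0.26 SE, limma adjusted p = 0.0213). Ambra1 read 7.94, 7.65, 7.41 and 8.11 against 8.14, 8.50, 8.77 and 8.47. Here Nix_KO 6 and WT 3 almost touched, and the level was 1.62-fold lower (log2 difference -0.69 ± 0.20 SE, limma adjusted p = 0.0279). Its 2 other tested probe sets differed by -0.56 and -0.84 and did not pass (adjusted p = 0.158 and 0.281), nor did the mean of its probe sets (adjusted p = 0.0641). Leaving out 1 array ended the call of Uvrag without Nix_KO 3, WT 4 or WT 6 (adjusted p up to 0.0654) and that of Ambra1 without Nix_KO 2, Nix_KO 3, WT 4, WT 5 or WT 6 (up to 0.0761). Atg14, which directs the complex to autophagosome formation, differed by 0.21 and did not pass.

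Among the genes of membrane supply and lipid reading, 3 of 7 were higher and 0 lower. Wipi1, a protein that binds phosphatidylinositol 3-phosphate, read 9.19, 9.31, 10.08 and 10.07 in Nix-null and 8.82, 8.24, 8.34 and 7.79 in wild-type spleen. Nix_KO 3 and Nix_KO 6 stood highest and WT 6 lowest, with no overlap. Wipi1 was 2.58-fold higher (log2 difference 1.37 ± 0.28 SE, limma adjusted p = 0.00735), and of its 6 probe sets all differed upwards and 4 passed.

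Wipi2, which recruits the conjugation machinery, differed by 0.55 at its brightest probe set and did not pass (limma adjusted p = 0.061). Another Wipi2 probe set did pass: it read 8.06, 9.37, 8.25 and 9.002 in Nix-null and 7.58, 7.27, 7.43 and 6.87 in wild-type spleen, a log2 difference of 1.38 (adjusted p = 0.00897). The remaining one differed by 0.25 and did not pass, so the probe sets of Wipi2 differed in call. Their mean, fitted by gene, passed at 0.73 (limma adjusted p = 0.0177). Wdr45, another lipid reader, differed by 0.12 and did not pass.

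Atg9a, a membrane protein carried on vesicles that seed the autophagosome, read 8.43, 9.07, 8.76 and 8.52 in Nix-null and 7.67, 7.43, 7.82 and 7.10 in wild-type spleen. The groups lay apart, and Atg9a was 2.29-fold higher (log2 difference 1.19 ± 0.21 SE, limma adjusted p = 0.00429). Its relative Atg9b did not pass the filter: its brighter probe set stood at 6.37 in Nix_KO 2 and between 4.80 and 5.40 in the other 7 arrays. Vmp1, an endoplasmic reticulum protein that moves lipid towards the forming membrane, read 10.52, 11.26, 10.55 and 11.10 against 10.34, 10.26, 10.08 and 10.32. Nix_KO 10 and Nix_KO 3 lay close to the wild-type arrays, and the 1.52-fold higher level was near the threshold (log2 difference 0.61 ± 0.20 SE, limma adjusted p = 0.0441). The call at this Vmp1 probe set was lost when any 1 of Nix_KO 2, Nix_KO 6, WT 3, WT 4, WT 5 or WT 6 was left out (adjusted p up to 0.109). A second, weaker Vmp1 probe set, with overlapping groups, differed by 0.99 and passed (limma adjusted p = 0.031). The lipid transfer proteins Atg2a and Atg2b differed by -0.15 and 0.27 and did not pass.

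**Figure D2:**
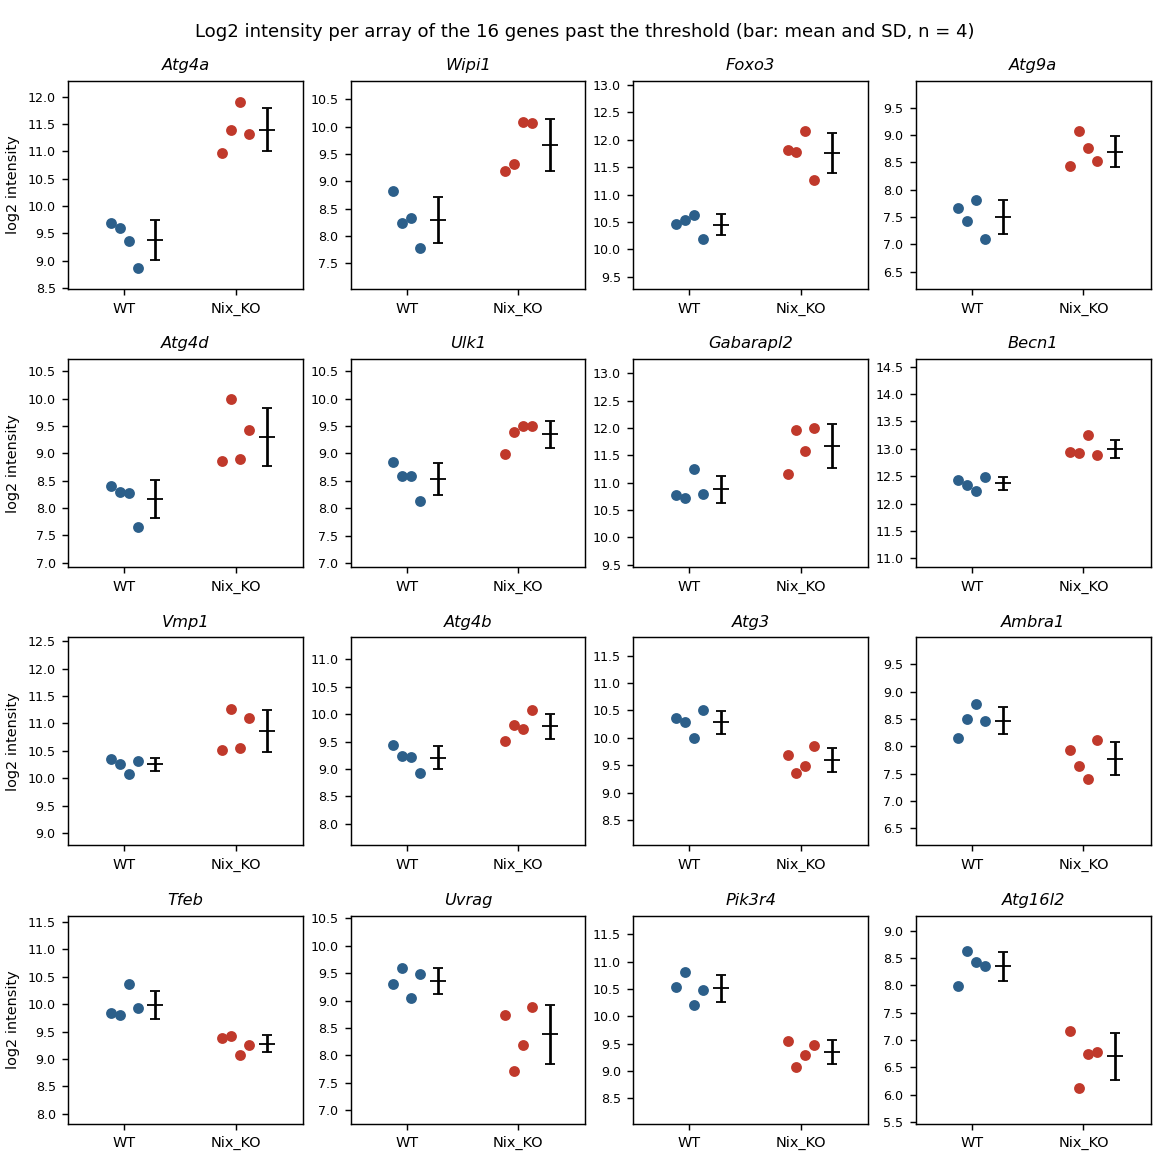
Log2 intensity of the 16 genes that passed the limma test, 1 point per array and 4 arrays per genotype. Points of the genotypes are apart for all of them except Gabarapl2, where WT 5 at 11.25 lies above Nix_KO 10 at 11.15.

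The conjugation system held 2 lower genes of 7 and 0 higher ones. Atg16l2 encodes a relative of the ATG16L1 scaffold that carries the ATG12-ATG5 conjugate to the membrane. It read 7.16, 6.12, 6.74 and 6.79 in Nix-null and 8.00, 8.62, 8.42 and 8.35 in wild-type spleen. This 3.13-fold lower level was the largest fall among the 39 genes (log2 difference -1.64 ± 0.23 SE, limma adjusted p = 0.00276), and the second probe set was also lower, at -0.90 (adjusted p = 0.034). Atg16l1 itself read 8.17 to 8.54 in Nix-null and 8.16 to 8.35 in wild-type arrays, a difference of 0.07 (95% interval -0.24 to 0.39).

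Atg3, the enzyme that transfers LC3 to its lipid, read 9.68, 9.36, 9.49 and 9.85 in Nix-null and 10.36, 10.29, 10.003 and 10.51 in wild-type spleen. The groups did not overlap, and Atg3 was 1.62-fold lower (log2 difference -0.69 ± 0.17 SE, limma adjusted p = 0.0148; 0.0526 without WT 6). Atg7, Atg10 and Atg12 differed by -0.15, 0.20 and 0.41 and did not pass. Atg5 differed by 0.02, with a wide interval of -0.84 to 0.88: its Nix-null arrays ran from 7.82 in Nix_KO 6 to 9.999 in Nix_KO 2, while the wild-type arrays stayed between 8.87 and 9.08.

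The ATG4 cysteine proteases, which trim LC3 and GABARAP proteins before conjugation and release them from membranes afterwards, held 3 higher genes of 4. Atg4a, on the X chromosome, read 10.97, 11.40, 11.90 and 11.32 in Nix-null and 9.70, 9.59, 9.36 and 8.86 in wild-type spleen. Every Nix-null array was more than 1 log2 unit above every wild-type array. At 4.05-fold, Atg4a was the largest change of the 39 genes (log2 difference 2.02 ± 0.24 SE, limma adjusted p = 0.00223). Among arrays with high Y-linked signal it read 10.97 and 11.32 in Nix-null against 9.36 and 8.86 in wild type, and among the others 11.40 and 11.90 against 9.70 and 9.59. That the genotypes were apart within both sets follows from their lack of overlap. The former set is not of 1 sex, since Nix_KO 10 and WT 5 also carried high Xist signal.

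Atg4d read 8.86, 9.99, 8.90 and 9.43 in Nix-null and 8.41, 8.30, 8.28 and 7.65 in wild-type spleen. With no overlap between the groups, Atg4d was 2.20-fold higher (log2 difference 1.13 ± 0.28 SE, limma adjusted p = 0.015). Atg4b, the most active of the family in vitro, read 9.52, 9.80, 9.73 and 10.07 against 9.44, 9.25, 9.21 and 8.93. Nix_KO 10 and WT 3 lay close together, and Atg4b was 1.48-fold higher (log2 difference 0.57 ± 0.17 SE, limma adjusted p = 0.0335). Its second tested probe set, with overlapping groups, differed by 0.43 and did not pass (adjusted p = 0.108). The call at the brightest Atg4b probe set was lost without Nix_KO 2, 3 or 6 or WT 4, 5 or 6 (adjusted p up to 0.104). Atg4c went the other way, from 6.97 to 7.91 in Nix-null and from 7.94 to 8.34 in wild-type arrays. Its difference of -0.61 did not pass (limma adjusted p = 0.0523), nor did that of its second probe set, at -0.89 (adjusted p = 0.0619). The mean of the Atg4c probe sets, fitted by gene, did pass, at -0.75 (limma adjusted p = 0.0124).

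The promoters of the ATG4 genes with the largest rises, of the genes of the conjugation step that fell and of Lamp1 are shown because they differ in the short motifs they hold. They are the 250 bases before an annotated start, from RefSeq (GRCm38.p6), written 5′ to 3′ on the gene's strand, with motif matches in capitals. The Atg4a windows lie at chrX:140953595-140953844 and chrX:140956657-140956906, the Atg4d window at chr9:21265035-21265284, Atg16l2 at chr7:101302089-101302338 on the minus strand, Atg3 at chr16:45158579-45158828 and Lamp1 at chr8:13158911-13159160. All but Atg16l2 are on the plus strand.
Atg4a, upstream start: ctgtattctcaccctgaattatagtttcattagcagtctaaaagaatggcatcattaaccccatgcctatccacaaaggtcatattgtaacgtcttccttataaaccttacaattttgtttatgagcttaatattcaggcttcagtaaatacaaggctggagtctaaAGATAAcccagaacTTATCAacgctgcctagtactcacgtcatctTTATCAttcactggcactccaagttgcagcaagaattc
Atg4a, downstream start: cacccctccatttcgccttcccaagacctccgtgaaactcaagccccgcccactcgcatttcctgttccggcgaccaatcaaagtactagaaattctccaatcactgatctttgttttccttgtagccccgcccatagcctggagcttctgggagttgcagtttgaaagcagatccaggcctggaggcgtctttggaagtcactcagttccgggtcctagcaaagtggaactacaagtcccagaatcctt
Atg4d: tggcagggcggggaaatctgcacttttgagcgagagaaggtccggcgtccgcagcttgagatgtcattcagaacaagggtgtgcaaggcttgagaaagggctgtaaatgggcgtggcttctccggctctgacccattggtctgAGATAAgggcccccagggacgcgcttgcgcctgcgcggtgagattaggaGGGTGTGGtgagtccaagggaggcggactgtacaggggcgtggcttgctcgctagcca
Atg16l2: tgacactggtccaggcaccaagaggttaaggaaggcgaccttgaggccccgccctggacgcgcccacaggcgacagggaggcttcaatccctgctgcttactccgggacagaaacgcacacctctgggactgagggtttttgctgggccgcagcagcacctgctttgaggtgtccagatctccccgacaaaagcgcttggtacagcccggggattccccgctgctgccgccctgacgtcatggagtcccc
Atg3: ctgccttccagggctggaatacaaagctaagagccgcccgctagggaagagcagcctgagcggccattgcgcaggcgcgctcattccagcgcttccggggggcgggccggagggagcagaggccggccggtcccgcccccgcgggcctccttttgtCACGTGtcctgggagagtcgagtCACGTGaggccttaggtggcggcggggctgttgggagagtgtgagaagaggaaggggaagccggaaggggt
Lamp1: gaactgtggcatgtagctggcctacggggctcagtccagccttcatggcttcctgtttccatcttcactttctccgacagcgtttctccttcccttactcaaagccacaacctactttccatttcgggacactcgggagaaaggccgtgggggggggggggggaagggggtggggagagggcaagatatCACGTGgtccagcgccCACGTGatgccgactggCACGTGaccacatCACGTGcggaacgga

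Motifs were searched on both strands in 41 windows of the 34 members found in the table and in all 32851 windows. The GATA motif, AGATAA or TGATAA, was matched 3 times in the upstream Atg4a window and 1 time in that of Atg4d, and in the Rab7 window as the only other member. Of the 12 windows of higher genes 2 held it, and 16.6% of all windows did. The E-box CACGTG, the core of the element that TFEB binds, was matched 4 times before Lamp1 and 2 times before Atg3, and also before Atg5 and Atg7. It stood in 6.02% of all windows and in 0 of the 12 windows of higher genes. The KLF motif CCACACCC was matched before Atg4d, Ulk2 and Uvrag (3.2% of all windows), and the FOXO motif GTAAACA before 0 members (3.17% of all windows). A match is a run of letters in the window and was not tied to binding here.

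The LC3 and GABARAP proteins, the membrane tags that cargo receptors such as Nix bind, held 1 higher gene of 5 by brightest probe set. Gabarapl2, also called GATE-16, read 11.15, 11.96, 11.57 and 11.998 in Nix-null and 10.78, 10.71, 11.25 and 10.79 in wild-type spleen. WT 5 lay above Nix_KO 10, so the groups overlapped, while the mean was 1.73-fold higher (log2 difference 0.79 ± 0.22 SE, limma adjusted p = 0.0251). The call at this probe set was lost without Nix_KO 2, Nix_KO 6, WT 3, WT 4 or WT 6 (adjusted p up to 0.0744). The weaker second probe set read 6.58 to 7.27 against 4.81 to 5.79, without overlap, and differed by 1.33 (adjusted p = 0.00524).

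Gabarap, which read 11.997 to 12.45 in Nix-null and 12.37 to 12.49 in wild-type arrays, differed by -0.23 (95% interval -0.56 to 0.09). Gabarapl1 and Map1lc3a differed by 0.13 and -0.10. None of these 3 genes passed, and their 95% intervals together reach from -0.56 to 0.62.

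Map1lc3b, the LC3B gene, gave values that depended on the probe set. The brightest, A, read 13.52, 13.56, 13.60 and 13.77 in Nix-null and 13.40, 13.70, 13.76 and 13.47 in wild-type spleen. The arrays were interleaved, with a difference of 0.03 (95% interval -0.30 to 0.35, limma adjusted p = 0.91). The next, B, read 13.38, 13.86, 13.75 and 13.92 against 12.69, 12.90, 13.11 and 12.85.

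All Nix-null arrays of probe set B were above all wild-type arrays, a difference of 0.84 ± 0.17 (SE, limma adjusted p = 0.00706). The weaker C and D differed by -0.00186 and 0.04. Relative to A, probe set B rose by 0.81 (exact permutation p = 0.0286, two-sided and the smallest that 4 against 4 can give, adjusted p = 0.271 over 38 such comparisons within genes). Across the members with several tested probe sets, calls differed within 8 of 23 genes, and in 0 of them were probe sets called in opposite directions. The transcripts that A and B detect are not given in the files, so a statement on Map1lc3b as a whole gene was not made.

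**Figure D3:**
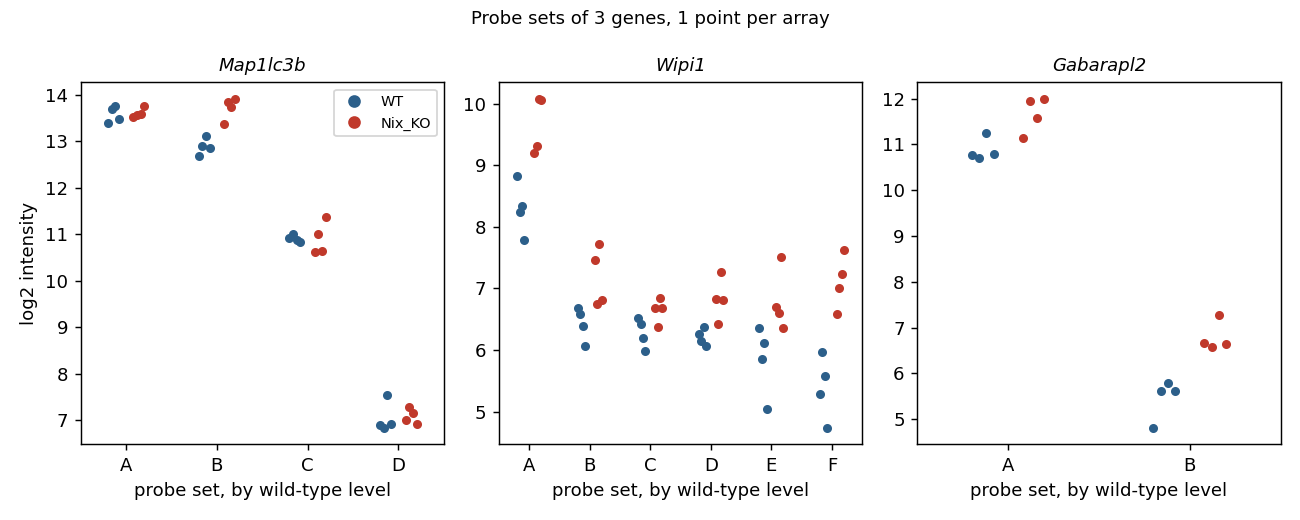
Log2 intensity by array for the tested probe sets of Map1lc3b, Wipi1 and Gabarapl2, lettered from the highest wild-type level down. For Map1lc3b the genotypes separate at probe set B (12.69 to 13.11 in wild type, 13.38 to 13.92 in Nix-null) and interleave at A.

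Since several of these proteins come in families, the log2 ratio of 2 relatives within each array was compared between genotypes for 14 pairs. For 9 pairs the ratio differed (exact permutation p = 0.0286, the smallest possible, adjusted p = 0.0444). Ulk1 rose relative to Ulk2 by 1.44, Atg16l1 relative to Atg16l2 by 1.72, and Wipi1 relative to Wipi2 by 0.81 and to Wdr45 by 1.24. Atg4a rose relative to Atg4b by 1.45, to Atg4c by 2.63 and to Atg4d by 0.88. The ratio of Gabarap to Gabarapl2 shifted by -1.02 and that of Map1lc3b to Gabarapl2 by -0.76. Under quantile normalization Wipi1 against Wipi2 did not pass (exact permutation, adjusted p = 0.0727). The brightest Wipi2 probe set differed by 0.55, but another differed by 1.38, near the 1.37 of Wipi1. The results on Wipi2 and Map1lc3b are thus those of the probe sets taken, not of the whole genes. In these 9 pairs the ratios of the 2 genotypes did not overlap. Because all 9 share the smallest possible p, their adjusted p depends on how many pairs reached it. The share of other gene pairs that reach it was not computed, and 39.6% of all single genes did not overlap between genotypes.

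The other 5 pairs did not pass: Atg2a over Atg2b shifted by -0.42 and Gabarap over Gabarapl1 by -0.36 (exact permutation p = 0.0571 and adjusted p = 0.0727 for both), Gabarapl1 over Gabarapl2 by -0.66 and Lamp1 over Lamp2 by 0.34 (exact permutation p = 0.0857 for both), and Map1lc3a over Map1lc3b by -0.13 (exact permutation p = 0.314). The members of these pairs were chosen with earlier results in view, and pairs that share a gene are not independent.

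At the lysosomal end 0 of 3 genes passed. Lamp1, a main glycoprotein of the lysosomal membrane, read 12.34 to 12.49 in Nix-null and 12.44 to 12.62 in wild-type arrays, a difference of -0.09 (95% interval -0.37 to 0.20). Lamp2, needed for fusion with autophagosomes and X-linked, read 12.66, 12.52, 12.78 and 12.15 against 12.93, 13.07, 13.00 and 12.82. The groups did not overlap, but the difference of -0.43 did not pass (limma adjusted p = 0.0798), and its 3 other probe sets differed by -0.32 to 0.09. Rab7, the GTPase of late endosomes, differed by -0.47 and did not pass (adjusted p = 0.0959).

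The transcription factors passed in opposite directions. Foxo3, which activates autophagy genes and is a known regulator of erythroid maturation, read 11.82, 11.77, 12.16 and 11.26 in Nix-null and 10.46, 10.54, 10.63 and 10.18 in wild-type spleen. The groups lay apart, and Foxo3 was 2.47-fold higher (log2 difference 1.30 ± 0.20 SE, limma adjusted p = 0.0034), with a second probe set higher by 1.13 (adjusted p = 0.0039). Tfeb, the regulator of lysosomal and autophagy genes, read 9.38, 9.42, 9.07 and 9.25 against 9.84, 9.80, 10.37 and 9.94. All Nix-null arrays lay below all wild-type ones, a 1.63-fold lower level (log2 difference -0.71 ± 0.17 SE, limma adjusted p = 0.0142).

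The erythroid marker level, the mean log2 intensity of 17 marker genes, was 12.52, 12.76, 13.02 and 12.97 in Nix-null and 11.62, 11.07, 10.81 and 9.66 in wild-type arrays. It thus separated the genotypes, and it varied widely within wild type. Other marker lists separated them too: the neutrophil level was 10.06, 10.93, 10.15 and 10.04 against 9.69, 9.11, 7.60 and 7.19, with the wild-type arrays in the same order as for the erythroid level, and the proliferation level 11.00 to 11.58 against 9.09 to 10.19. WT 6, lowest in erythroid and neutrophil level, was also the lowest wild-type array for 7 of the 10 higher genes (Ulk1, Atg9a, Wipi1, Atg4a, Atg4b, Atg4d and Foxo3) and the highest for 1, Becn1. The same array was lowest for 0 of the 6 lower genes and for 8 of the 23 genes that did not pass, and highest for 1 and 3 of these. These are counts over genes of 1 array. How often WT 6 was the lowest wild-type array among all genes was not counted, so these counts cannot be read as a trait of the autophagy genes. The part of erythroid or other cells in the differences was not tested.

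**Figure D4:**
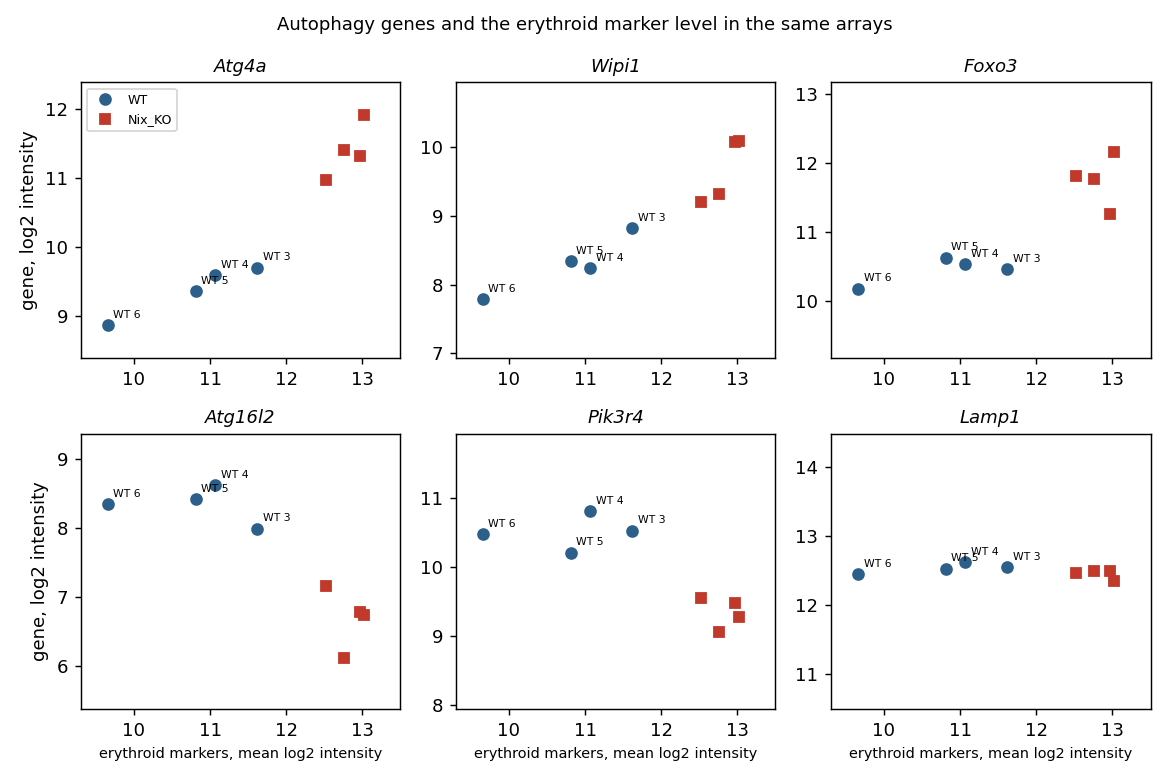
Log2 intensity of 6 genes against the mean log2 intensity of the 17 erythroid markers, 1 point per array. The genes are Atg4a, Wipi1, Foxo3, Atg16l2, Pik3r4 and Lamp1. The Nix-null arrays, at 12.52 to 13.02, lie to the right of the wild-type arrays, at 9.66 to 11.62, so genotype and erythroid level cannot be told apart between the groups.

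Leaving out Nix_KO 3, WT 3 and WT 5, the 3 arrays with high pancreatic signal, kept 3 Nix-null and 2 wild-type arrays. All 16 genes kept their direction, and none moved by more than 0.315 on the log2 scale. Except for Gabarapl2 the direction could not change, since groups that do not overlap stay apart when arrays are left out. The differences then were 2.00 for Atg4a, 1.51 for Wipi1, 1.41 for Atg9a, 1.26 for Foxo3, -1.80 for Atg16l2 and -1.28 for Pik3r4. With so few arrays only Atg4a passed limma (adjusted p = 0.0476), the adjusted p of the 16 genes running up to 0.167, and 3.09% of all probe sets passed in place of 30.0%. Approximate size was thus kept in the remaining 5 arrays while 15 of the 16 calls were lost. With the pancreatic marker level as a covariate 10 genes were higher and 6 lower, with Vmp1 lost and Rb1cc1 gained. With Y-linked signal as a block 9 were higher and 6 lower, with Vmp1 lost.

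**Figure D5:**
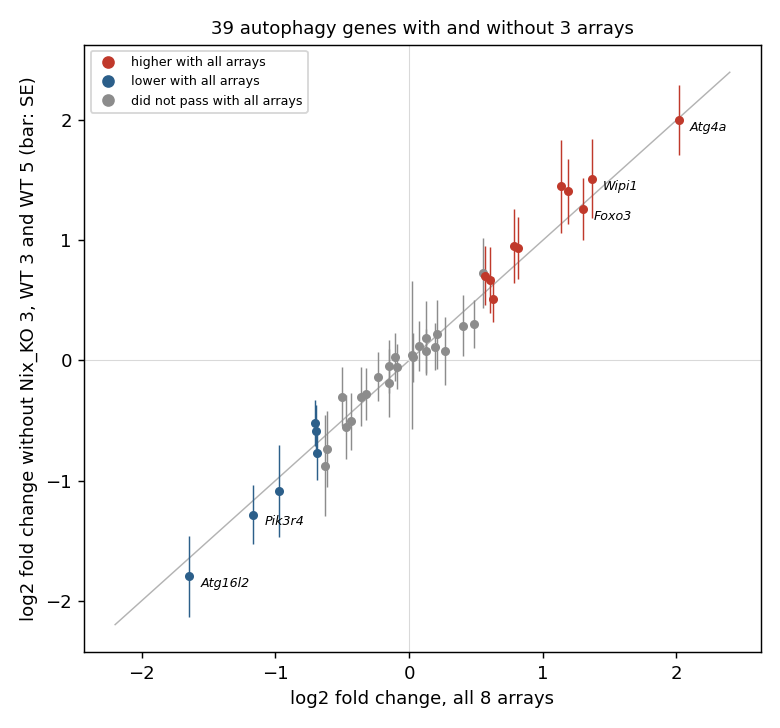
Log2 difference, Nix-null minus wild type, of the 39 genes over all 8 arrays (x axis) and over the 5 arrays left without Nix_KO 3, WT 3 and WT 5 (y axis). The 16 genes that passed keep their side of 0, from -1.80 for Atg16l2 to 2.00 for Atg4a on the y axis. For all but Gabarapl2 this follows from groups that did not overlap.

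A wider list of 60 autophagy genes outside the core set, of which 55 were tested, gave 5 higher and 8 lower genes, or 23.6% against 34.4% of all genes, with a median log2 difference of -0.10. Among 7 cargo receptors only Ncoa4, which delivers ferritin to the autophagosome, passed: it read 12.63, 12.99, 13.27 and 12.79 in Nix-null and 11.75, 11.69, 11.37 and 11.58 in wild-type spleen, 2.50-fold higher (limma adjusted p = 0.0025). Among partners of the lipid kinase complex and of the conjugation step, Sh3glb1, a UVRAG-binding protein that shapes membranes, was higher by log2 1.04 and Tmem41b, which acts with VMP1, by 0.63. In the same list Rubcn, an inhibitor of the complex, was lower by -1.16, and Tecpr1, which binds the ATG12-ATG5 conjugate, by -1.58 (limma adjusted p from 0.00369 to 0.0129 for these 4).

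Of 15 genes of the nutrient sensors mTORC1 and AMPK, 2 were higher (the AMPK subunits Prkab1 and Prkag1, by 0.73 and 0.57) and 2 lower (the AMPK subunit Prkab2 and the mTOR inhibitor Deptor, with differences of -0.79 and -1.36). Of 11 genes of fusion 0 were higher and 2 lower, Vps11 and Plekhm1, with differences of -0.57 and -0.67. Of 13 genes of the lysosome and its regulators 0 were higher and 2 lower. The lower ones were Mitf and Scarb2, with differences of -0.61 and -0.67 (limma adjusted p up to 0.0474 for the 8 genes named in this paragraph). Over all genes tested, 13.1% were higher and 21.3% lower, and the shares in these lists were near or below that.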

How the data were processed

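For each array the authors deposited a linear intensity for every probe set. GCRMA, a background correction, normalization and probe summary in 1 procedure, produced these intensities per the submitters' processing notes, with its version not given in the sources used here. Array medians ran from 28.8 to 30.6, and the number of arrays limits the precision. Weak probe sets are compressed towards background by this correction. The deposited intensities were log2-transformed with no offset. Gene names came from the platform annotation (34945 with 1 gene symbol, 932 with several, 9160 with none). Without 64 control probe sets, 22347 of 45037 passed the filter.

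Genotypes were compared with limma 3.58.1 in R 4.3.3 (a two-sided moderated test) on all 22347 probe sets, with Benjamini-Hochberg adjustment over them and a threshold of 0.05. The probe set of highest mean intensity over the 8 arrays, among those annotated to 1 gene, stood for that gene. Ratios of relatives were compared by exact two-sided permutation with SciPy 1.17.1, adjusted over 14 pairs (of 15, 1 had a gene below the filter). The fit was tested on simulated data. The members and lists were chosen with earlier results of these data known. Every member is named, with per-array values for those called or with probe sets that differ in call, and of each other pathway list at most the 4 called genes of smallest adjusted p. Alternatives were other filters, scalings, offsets and fits, each array left out, and 3 added after seeing the data (pancreatic signal, in 2 ways, and Y-linked signal).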

Additional observations from a re-analysis of the deposited data

Results flagged for a closer look

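Within a genotype, 1 array stood far from the other 3 in 8 of the 78 combinations of gene and genotype examined, and chance alone gives about 1 in 20. In Nix_KO 2, Ulk2 stood low at a log2 intensity of 7.19 (8.31 to 8.48 in the other Nix-null arrays), Atg2b low at 6.75 (7.43 to 7.51) and Map1lc3a high at 10.91 (10.62 to 10.67). In Nix_KO 3, Becn1 stood high at 13.24 (12.88 to 12.94). In WT 5, Map1lc3a stood high at 11.14 (10.68 to 10.75) and Gabarapl2 high at 11.25 (10.71 to 10.79). In WT 6, Atg16l1 stood low at 8.16 (8.32 to 8.35) and Gabarap low at 12.37 (12.47 to 12.49).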

How the results depend on the processing

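Across 818 combinations of gene and alternative, 732 kept their side of the threshold, 62 lost a call, 24 gained one and 0 called genes changed sign. Where arrays were only left out, called genes other than Gabarapl2 could not change sign, as their groups did not overlap. Among the 732 were 17 sign changes, on 6 uncalled genes (Map1lc3a, Lamp1, Map1lc3b, Gabarapl1, Atg2a and Atg5). Leaving out 1 array gave 7 to 11 higher and 3 to 8 lower genes, and 12 to 18 higher and 3 to 11 lower probe sets; lower probe sets fell from 8 to 4 without WT 4 and to 3 without WT 6, and lower genes from 6 to 3 without WT 6. Of the 16 called genes, 10 kept their call in each such fit. Without the 3 arrays with pancreatic signal, 1 gene was higher and 0 lower, and 2 probe sets higher and 0 lower (unadjusted p below 0.05: 11 genes higher and 6 lower). Numbers 3 and 6 occur in both genotypes, with correlations of deviations of 0.252 and 0.147 between arrays of the same number and of -0.319 and 0.0526 between arrays of crossed numbers. The labels tie no number to a shared litter, batch or day, and with 2 shared numbers it was not settled whether they pair the arrays. Both arrays numbered 3 carried high pancreatic and Xist signal, and both numbered 6 high Y-linked signal. With that number as a replicate block, which leaves the comparison to those numbers, limma called 0 higher and 0 lower genes and 0 higher and 0 lower probe sets, and 1 of all 22347 probe sets; at an unadjusted p below 0.05 it gave 7 higher and 5 lower genes. Among 168 pair comparisons, Wipi1 against Wipi2 lost its call under quantile normalization (adjusted p = 0.0727), where Atg2a against Atg2b and Gabarap against Gabarapl1 gained one (adjusted p = 0.04). With 1 array left out no pair could pass, since the smallest exact permutation p is 0.0571.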
